A study of Mus musculus with 2 samples.

Results

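The cells described here were effector CD8 T cells from infarcted mouse hearts in which a transcript of Pdcd1 or Tigit was seen. They were chosen cell by cell from the unique molecular identifiers (UMIs, 1 per captured transcript) in both single-cell libraries of the series. After barcodes with fewer than 300 genes, fewer than 500 UMIs or more than 10% mitochondrial UMIs were set aside, a cell was taken where it held at least 1 UMI of Cd8a or Cd8b1, at least 1 UMI of Cd3d, Cd3e or Cd3g and 0 UMIs of Cd4 and Foxp3. It also had to hold at least 2 UMIs summed over Ccl5, Gzmk and Nkg7, and at least 1 UMI summed over Pdcd1 and Tigit. This gave 784 cells of 10144 kept in all, with 543 from the anti-PD1 library and 241 from the anti-IgG library. The 962 effector CD8 cells in which neither transcript was seen, 517 from the anti-PD1 library and 445 from the anti-IgG library, served as the comparison within each library.

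Both libraries came from hearts of WT mice 7 days after myocardial infarction (MI), with no uninfarcted heart among them. The mice of the anti-PD1 library had been injected with an antibody against PD1, and those of the anti-IgG library with anti-IgG, the control antibody. The antibody clones, the dosing, the mouse strain, age and sex, and the number of hearts behind each library were not given in the sources used here. The series text says that T cells had been sorted, while the tissue protocol describes no sort, only digestion with lysis of red cells and depletion of dead ones. Each treatment had 1 library, so no test between treatments was possible. Every interval in brackets below is a 95% interval for counting error only, and is too narrow where a gene's UMIs lay in few cells.

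PD1, encoded by Pdcd1, is an inhibitory receptor that T cells display after their antigen receptor has been engaged. Its ligands PD-L1 and PD-L2 recruit phosphatases to it that dampen receptor and CD28 signalling, and antibodies against PD1 block this. TIGIT is a second inhibitory receptor, which competes with the activating receptor CD226 for CD155, encoded by Pvr. CD8 T cells that carry such receptors may be recently activated, resident in tissue, or in the chronically stimulated state called exhaustion. Immune inflammation of the heart is a known complication of PD1 blockade.

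The anti-PD1 library held 29046341 UMIs over 6026 barcodes and the anti-IgG library 22806806 UMIs over 4380 barcodes. The filters kept 5835 cells of the anti-PD1 library and 4309 of the anti-IgG library, with medians of 3858 and 4079 UMIs a cell. Cells with Pdcd1 or Tigit were deeper than those lacking both. Their median was 5563 UMIs in the anti-PD1 library and 5526 in the anti-IgG library, against 4399 and 4918 in cells lacking both. A total of 47 barcodes occurred in both libraries, among them 5 of the anti-PD1 and 1 of the anti-IgG cells with Pdcd1 or Tigit.

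Transcripts of other cell types were present in the chosen cells. Of 3 defining B cell genes (Cd79a, Cd79b and Ms4a1), a UMI was seen in 10.9% of the anti-PD1 and 9.96% of the anti-IgG cells with Pdcd1 or Tigit. Levels below are in CPM, a gene's UMIs for every 1000000 UMIs of the same cells. The summed level of the 3 genes was 126.7 CPM in the anti-PD1 library and 49.0 CPM in the anti-IgG library. Defining macrophage genes were seen in 6.26% and 7.05% of these cells, at 553 CPM in the anti-PD1 and 722 CPM in the anti-IgG library. Genes of a list of 8 dendritic cell markers were seen in 24.1% of these cells in each library, against 9.67% of the anti-PD1 and 8.09% of the anti-IgG cells lacking both. Their sum was 274 CPM in the anti-PD1 and 235 CPM in the anti-IgG cells with Pdcd1 or Tigit, against 149 and 103 CPM in cells lacking both, and Xcr1 and Clec9a of conventional dendritic cells were at 0. That list holds Itgax, an integrin of activated CD8 cells as well, so these values do not count transcripts of other cell types alone. The neutrophil genes S100a9, Cxcr2 and Retnlg were at 0. A UMI of Trdc, Trdv4, Trgv6 or Scart1, genes of gamma-delta T cells, was seen in 12% of the anti-PD1 and 6.64% of the anti-IgG cells with Pdcd1 or Tigit, against 5.22% and 3.37% of cells lacking both.

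Of the genes named for these cells, only Eomes was not used to choose them, so the shares of the others describe the choice. Cd8a, the alpha chain of the CD8 co-receptor, was seen in 93.0% of the anti-PD1 and 93.8% of the anti-IgG cells with Pdcd1 or Tigit, and Cd8b1, the beta chain, in 91.0% and 94.6%. In cells with B cell markers and no Cd3 UMI, Cd8a was seen in 1.97% of the anti-PD1 and 3.12% of the anti-IgG cells. Gzmk, a granzyme of memory-type CD8 cells, was seen in 47.7% and 50.6% of the cells with Pdcd1 or Tigit, against 23.0% and 22.5% of those lacking both, and in none of the 152 anti-PD1 and 64 anti-IgG cells with B cell markers. Eomes, a T-box regulator of effector and memory cells, was seen in 29.3% and 26.1%, against 19.1% and 16% of cells lacking both. At 1000 UMIs a cell these shares were 8.29% and 7.88%, against 6.24% and 5.02%, with intervals that overlapped, and Eomes was in none of the cells with B cell markers. The beta chain V segments were spread in both libraries. Among cells with a segment seen, Trbv13-2 led in 9.83% of the anti-PD1 cells, and Trbv13-2 and Trbv19 in 8.51% each of the anti-IgG cells, with 21 segments in each library.

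The values that chose the cells are given as a description. The sum of Ccl5, Gzmk and Nkg7 had a median of 44 UMIs in the anti-PD1 and 45 in the anti-IgG cells with Pdcd1 or Tigit, against 9 and 10 in cells lacking both. The cells lacking both lay closer to the effector threshold, and 48.2% of them in the anti-PD1 and 51.0% in the anti-IgG library held 10 or more of these UMIs, against 90.4% and 89.6% of the cells with Pdcd1 or Tigit. Of the chosen cells, 33.7% in the anti-PD1 and 42.3% in the anti-IgG library rested on exactly 1 UMI of Pdcd1 or Tigit. Just inside the effector threshold, at 2 UMIs, lay 12 anti-PD1 and 8 anti-IgG cells, and just outside it, at 1 UMI, lay 12 and 4.

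Cells with Pdcd1 or Tigit were a larger share of effector CD8 cells in the anti-PD1 library. The ratio was higher for cells with Tigit than for cells with Pdcd1, with intervals that overlapped. They made up 543 of 1060 effector CD8 cells after anti-PD1, or 51.2% (48.2 to 54.3), and 241 of 686 after anti-IgG, or 35.1% (31.6 to 38.8). The ratio of the shares was 1.46 (1.30 to 1.64). Among all kept cells the share was 9.31% in the anti-PD1 and 5.59% in the anti-IgG library, a ratio of 1.66 (1.44 to 1.93), whereas effector cells were 78.2% and 74.3% of CD8 T cells.

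Tigit was seen in 44.2% of anti-PD1 and 27.3% of anti-IgG effector CD8 cells, a ratio of 1.62 (1.41 to 1.86). Pdcd1 was seen in 19.8% and 16%, a ratio of 1.24 (1.002 to 1.52), and both transcripts in 12.7% and 8.16%. The interval of the Pdcd1 ratio came close to 1. With each cell thinned at random to 1000 UMIs, so that depth was equal, the cells with Pdcd1 or Tigit were 28.7% of anti-PD1 and 15.3% of anti-IgG effector CD8 cells, a ratio of 1.88 (1.45 to 2.43). The ratio for Tigit was then 1.98 (1.43 to 2.75) and that for Pdcd1 1.71 (1.11 to 2.64). In the cells with B cell markers neither transcript was seen in either library, a count of 0 that allows shares of up to 1.99% in the anti-PD1 and 4.69% in the anti-IgG library.

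Within the chosen cells the mix also differed. Tigit without Pdcd1 was the commonest pattern, in 333 anti-PD1 cells (61.3%) and 131 anti-IgG cells (54.4%). Both transcripts were seen in 135 anti-PD1 cells (24.9%) and 56 anti-IgG cells (23.2%), and Pdcd1 without Tigit in 75 (13.8%) and 54 (22.4%). The last of these had a ratio of shares of 0.616 (0.450 to 0.845), which was 0.892 (0.592 to 1.34) at equal depth.

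**Figure D1:**
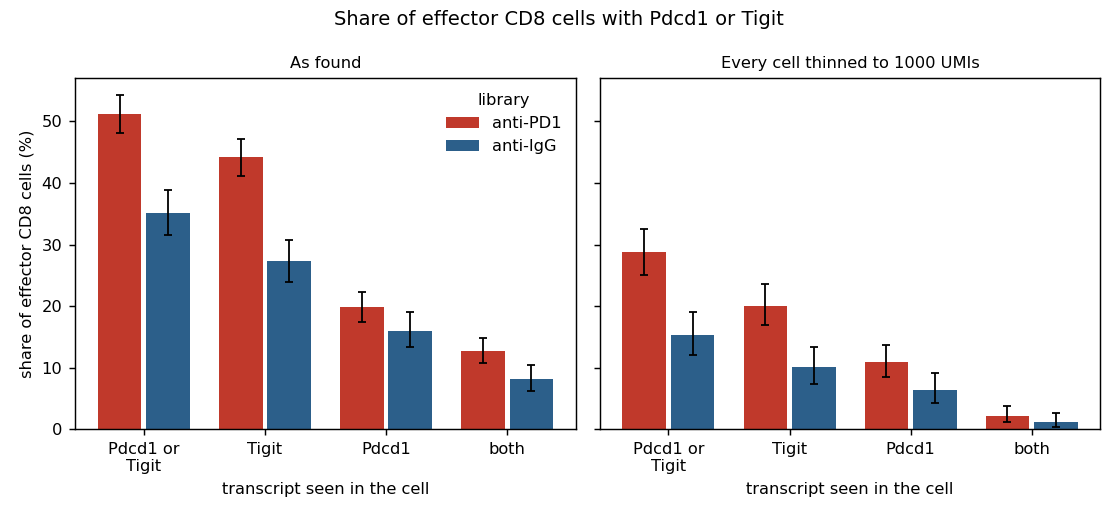
Share of effector CD8 cells with each transcript in percent, as found (left panel) and with every cell thinned to 1000 UMIs (right panel), for the anti-PD1 library (left of each pair) and the anti-IgG library; whiskers are exact 95% counting intervals. Cells with Pdcd1 or Tigit were 51.2% of effector CD8 cells in the anti-PD1 library and 35.1% in the anti-IgG library.

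Gene levels in the cells with Pdcd1 or Tigit were then compared between the anti-PD1 and the anti-IgG library, to set the cells after PD1 blockade beside those after the control antibody. A level was taken from the UMIs of all cells of a kind in a library together, and a gene was counted where it held at least 50 summed UMIs and its ratio was at least 1.5 in either direction. Of 7948 genes, 523 (6.58%) were higher and 688 (8.66%) lower in the anti-PD1 library, and the median log2 ratio was −0.07. Genes of early activation, several costimulatory and coinhibitory receptors and some chemokines were among the higher ones. Type I interferon response genes, the tissue homing receptors Cxcr3 and Cxcr6 and the memory-associated genes Il7r and Slamf6 were among the lower ones. So were the activating receptor gene Cd226 and the inhibitory receptor genes Lair1 and Vsir. With 1 library a treatment, none of these differences can be told apart from a difference between the hearts or the libraries. The same comparison in cells lacking both gave 381 of 7621 genes higher (5%) and 631 lower (8.28%), and its values are given beside those of the chosen cells. Both comparisons share their libraries.

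Many genes that are switched on soon after antigen receptor engagement were higher. Of 29 early activation genes measured, 15 were higher in the anti-PD1 library and 3 lower, with a median log2 ratio of 0.60. In cells lacking both, 14 of 28 were higher and 1 lower, with a median of 0.59. Nr4a1, an orphan nuclear receptor induced within the first hours of receptor signalling, stood at 428 CPM in the anti-PD1 and 68.5 CPM in the anti-IgG library, a ratio of 6.25 (5.17 to 7.62). The ratio stayed between 5.59 and 8.23 under every alternative, and it was 5.07 in cells lacking both. Its relatives Nr4a3 (305 against 59.1 CPM, ratio 5.16 (4.21 to 6.40)) and Nr4a2 (233 against 69.7 CPM, ratio 3.34 (2.75 to 4.08)) were higher as well. At 1000 UMIs a cell, Nr4a3 was seen in 24.9% of the anti-PD1 and 5.39% of the anti-IgG cells, against 4.64% and none of the cells with B cell markers. The same was not so for Nr4a1. It was seen in 27.6% and 4.56% of the chosen cells, and in 33.8% of the anti-PD1 and 14.1% of the anti-IgG cells with B cell markers.

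Some feedback regulators of signalling were also higher. Dusp5, a nuclear phosphatase of ERK, stood at 611 CPM in the anti-PD1 and 157 CPM in the anti-IgG library, a ratio of 3.9 (3.43 to 4.45), with 3.98 in cells lacking both. Rgs16, which shortens G protein signals, had a ratio of 5.70 (3.30 to 10.6). Among AP-1 and related factors, Fosl2 had 200 CPM after anti-PD1 and 47.9 CPM after anti-IgG, and Bhlhe40, a repressor needed for effector cytokines, 398 and 137 CPM. Irf4, whose level in T cells tracks the strength of receptor signalling, stood at 38.1 CPM after anti-PD1 and 13.0 CPM after anti-IgG. Crem and Atf3, factors of the cAMP and stress responses, had ratios of 3.92 (2.93 to 5.35) and 3.39 (2.03 to 6.0). That of Atf3 was 1.26 (0.716 to 2.32) with at least 2 UMIs of Pdcd1 and Tigit. The AP-1 subunits were not all alike. Junb had a ratio of 1.74 (1.67 to 1.83), while Jun (359 against 633 CPM), Fos and Fosb had ratios of 0.568 (0.523 to 0.616), 0.647 and 0.653, and Egr1 had 1.33. When cells were thinned to 1000 UMIs before they were chosen, the ratio of Fos turned to 1.24, while that of Jun was 0.608.

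The cAMP response element TGACGTCA was searched on both strands in the 250 bases before each gene start in RefSeq promoters of GRCm38.p6. It lay in 3 of the 22 early activation genes with a searched entry, against 478 of all 27025 genes with a searched entry (1.77%). Of the 12 genes with the highest ratios, 10 had a searched entry, and none of these held it. Windows of 60 bases are shown for a pair of these genes, with the element in capitals. Nfkbid, an atypical inhibitor of NF-kB, had a ratio of 1.98 and is shown at chr7:30422330-30422389 on the plus strand. Dusp1, a phosphatase of stress kinases, had a ratio of 1.29, below the threshold, and is shown at chr17:26508581-26508640 on the minus strand.
Nfkbid: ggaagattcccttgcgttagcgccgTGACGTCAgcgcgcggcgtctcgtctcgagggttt
Dusp1: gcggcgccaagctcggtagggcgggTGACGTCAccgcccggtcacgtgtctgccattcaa

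The gene with the highest ratio in the anti-PD1 cells was Ramp3, a chain that pairs with receptors for calcitonin family peptides. It had 163 UMIs, or 44.4 CPM, in the anti-PD1 cells and 5 UMIs, or 2.95 CPM, in the anti-IgG cells. The ratio was 15 (6.31 to 46.9), with 11.6 to 38.0 over the alternatives and 5.17 in cells lacking both. A UMI was seen in 12.9% of the anti-PD1 and 2.07% of the anti-IgG cells. At 1000 UMIs a cell the shares were 3.13% and 0 of 241, which allows up to 1.24%. Chrne, a muscle-type acetylcholine receptor subunit, and Tgif2, a transcriptional corepressor, had ratios of 7.22 (2.32 to 36.3) and 5.88, with 47 and 3 UMIs of Chrne.

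Of the 12 highest ratios, 5 belonged to genes that B cells express. Fcer2a, Fcmr, Cd24a, H2-DMb2 and Cd83 had ratios of 8.53, 6.36, 6.34, 5.59 and 5.50, and each was seen in 4.24% to 8.10% of the anti-PD1 and 0.83% to 1.66% of the anti-IgG cells. In cells lacking both, their ratios were 1.28, 0.618, 1.39, 1.05 and 1.76. The whole list of B cell markers summed to 1482 CPM in the anti-PD1 and 837 CPM in the anti-IgG cells with Pdcd1 or Tigit, and 5 of its 6 measured genes were higher, with a median of 1.27. When cells with a UMI of a defining B cell, macrophage or plasmacytoid gene were left out, an alternative added after the data were seen, 456 anti-PD1 and 204 anti-IgG cells remained. Fcer2a, Fcmr, Cd24a and H2-DMb2 then fell short of 50 summed UMIs, while the ratio of Cd83 was 5.64, that of Nr4a1 6.14, of Ctla4 2.58 and of Ramp3 19.9. The share of these cells among effector CD8 cells then had a ratio of 1.47. Immunoglobulin genes, left out of the gene counts, made up 10275 CPM in the anti-PD1 and 246 CPM in the anti-IgG cells, and 2 anti-PD1 cells held 26844 and 9556 of the 37723 UMIs.

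Inhibitory receptors did not share 1 direction. Of 13 measured, 3 were higher and 2 lower, with a median of −0.07. Ctla4, which outcompetes CD28 for its ligands, stood at 121 CPM in the anti-PD1 and 59.7 CPM in the anti-IgG cells, a ratio of 2.03 (1.63 to 2.55), and 1.91 in cells lacking both. Nt5e, the ectoenzyme CD73 that makes adenosine, had a ratio of 1.53 (1.13 to 2.10), and Cd244a, a SLAM family receptor, 1.77 (0.921 to 3.67). Lair1, a collagen receptor, stood at 13.3 CPM after anti-PD1 and 33.7 CPM after anti-IgG, a ratio of 0.396 (0.265 to 0.591), with 0.986 in cells lacking both. Vsir, which encodes the checkpoint protein VISTA, had a ratio of 0.606 (0.508 to 0.724). The interval of Lag3, a receptor for MHC class II, held 1, at 0.765 (0.512 to 1.16), as did that of Havcr2, the gene of TIM-3, at 1.35 (0.754 to 2.56).

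The targeted receptor and its neighbours were measured in the same cells. Pdcd1, which the choice of cells used, stood at 172 CPM in the anti-PD1 and 183 CPM in the anti-IgG cells, a ratio of 0.943 (0.822 to 1.08). Tigit, used as well, had 304 and 220 CPM, a ratio of 1.38 (1.23 to 1.56). Among ligands and partners, 3 of 9 were higher and 1 lower, with a median of −0.03. Pvr, the gene of the TIGIT ligand CD155, had 21.8 CPM after anti-PD1 and 10.0 CPM after anti-IgG, a ratio of 2.17 (1.27 to 3.91). The PD1 ligand genes Cd274 and Pdcd1lg2 had ratios of 1.61 (1.14 to 2.33) and 2.27 (1.27 to 4.37). Cd226, the activating rival of TIGIT, stood at 124 CPM in the anti-PD1 and 207 CPM in the anti-IgG cells, a ratio of 0.600 (0.521 to 0.692), close to the 0.606 of cells lacking both. Myeloid and B cells also make these ligands. Without the cells that held their defining transcripts, the ratios were 2.35 for Pvr, 1.6 for Cd274 and 1.74 for Pdcd1lg2.

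Of 14 costimulatory receptors and ligands, 4 were higher and 2 lower, with a median of 0.07. Tnfrsf9, the gene of 4-1BB, which marks recent antigen encounter in CD8 cells, stood at 53.9 CPM in the anti-PD1 and 8.27 CPM in the anti-IgG cells, a ratio of 6.52 (3.80 to 12.1), and 2.72 in cells lacking both. Tnfrsf1b, the gene of TNF receptor 2, had 256 against 65.6 CPM, a ratio of 3.91 (3.21 to 4.80). Icos, a CD28 relative, had 228 CPM after anti-PD1 and 93.4 CPM after anti-IgG, a ratio of 2.44 (2.06 to 2.91).

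The regulators of exhaustion and differentiation had 5 higher and 2 lower genes of 19, with a median of 0.15. The 5 higher ones were Nr4a1, Nr4a2, Nr4a3, Irf4 and Bhlhe40, given above. Tox, the factor that establishes the exhausted state, stood at 73.3 CPM in the anti-PD1 and 66.2 CPM in the anti-IgG cells, a ratio of 1.11 (0.885 to 1.39). Eomes, at 88.3 and 88.0 CPM, had a ratio of 1.00 (0.823 to 1.23). Id2, a helix-loop-helix factor of effector cells, had 248 CPM after anti-PD1 and 381 CPM after anti-IgG, a ratio of 0.650 (0.587 to 0.720). That ratio was 1.08 when cells were thinned to 1000 UMIs before they were chosen. Maf, a factor of interleukin 10 and residency programmes, had a ratio of 0.645 (0.470 to 0.890).

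Of 17 stem-like and memory genes, 3 were higher and 4 lower, with a median of 0.03. Tcf7, the gene of TCF1, which keeps a self-renewing pool, stood at 266 CPM in the anti-PD1 and 377 CPM in the anti-IgG cells, a ratio of 0.705 (0.637 to 0.780), short of the threshold. Il7r, the receptor of a survival cytokine, had 303 against 512 CPM, a ratio of 0.592 (0.541 to 0.648). That ratio was 0.95 when cells were thinned to 1000 UMIs before they were chosen, which left 169 anti-PD1 and 65 anti-IgG cells. With all chosen cells kept and thinned to 1000 UMIs, Il7r was seen in 21.0% after anti-PD1 and 32.8% after anti-IgG. Slamf6, a marker of TCF1-positive cells, had 50.9 against 102 CPM, a ratio of 0.498 (0.403 to 0.616). The lymph node homing receptor Ccr7 went the other way, at 364 CPM after anti-PD1 and 181 CPM after anti-IgG, a ratio of 2.01 (1.77 to 2.28). Bcl6, a repressor of effector differentiation, had a ratio of 2.41 (1.53 to 3.94).

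Few cytotoxic genes passed the threshold between the libraries. Of 16, 2 were higher and 2 lower, with a median of −0.13. When cells were thinned to 1000 UMIs before they were chosen, the median over the genes still measured was 0.21. Serpinb9, an inhibitor that shields cells from their own granzyme B, stood at 201 CPM in the anti-PD1 and 78.0 CPM in the anti-IgG cells, a ratio of 2.57 (2.14 to 3.12). The related Serpinb6b had 2.44 (2.01 to 2.98). Granzymes lay closer to 1, but their ratios depended on which cells were taken. Gzmb had 328 CPM after anti-PD1 and 260 CPM after anti-IgG, a ratio of 1.26 (1.13 to 1.41), and Gzma 374 and 357 CPM, a ratio of 1.05 (0.951 to 1.15). The ratio of Gzmb was 1.87 with each cell weighted alike, 2.09 without cycling cells, 2.15 without cells with transcripts of other types and 1.94 in cells with a Tigit UMI. That of Gzma was 1.65 without cells with NK or gamma-delta transcripts. At 1000 UMIs a cell, Gzmb was seen in 17.1% of the anti-PD1 and 9.96% of the anti-IgG cells, and Gzma in 11.6% and 6.64%. Gzmm had 0.557 (0.398 to 0.782), which was 1.04 with at least 2 UMIs of Pdcd1 and Tigit, and the pore protein Prf1 had 44.1 and 58.5 CPM, a ratio of 0.754.

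Cytokines and chemokines split, with 5 of 13 higher, 4 lower and a median of −0.04. Ccl3 and Ccl4, chemokines that T cells release on activation, had ratios of 2.17 (1.45 to 3.33) and 1.77 (1.58 to 1.99), and Ccl4 stood at 387 CPM in the anti-PD1 and 218 CPM in the anti-IgG cells. With at least 2 UMIs of Pdcd1 and Tigit these ratios were 1.32 and 1.40. Tgfb1 had 245 against 131 CPM, a ratio of 1.86 (1.61 to 2.17). Il2, a growth factor of T cells, was among the 12 lowest genes, at 5.99 CPM after anti-PD1 and 16.5 CPM after anti-IgG, a ratio of 0.362 (0.197 to 0.656). Il16 and Ltb, a lymphotoxin chain, had ratios of 0.509 and 0.660 (0.608 to 0.716). Ifng, the main effector cytokine of these cells, had 93.4 and 116 CPM, a ratio of 0.807 (0.675 to 0.967), and Tnf a ratio of 0.972.

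Cxcr3, Cxcr6 and Cx3cr1, receptors that guide or keep CD8 cells in inflamed tissue, were lower. Cxcr3 stood at 151 CPM in the anti-PD1 and 256 CPM in the anti-IgG cells, a ratio of 0.587 (0.517 to 0.668). Cxcr6 had 178 against 324 CPM, a ratio of 0.548 (0.488 to 0.614), and Cx3cr1 0.538 (0.349 to 0.832). Of 16 chemokine and homing receptors 2 were higher and 4 lower, with a median of −0.20. Of the NK-type receptors, 5 of 13 were higher and 1 lower, among them Klrc1, the gene of NKG2A, at 142 against 88.6 CPM, a ratio of 1.61 (1.34 to 1.94).

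Survival genes had 5 higher and 1 lower of 18, with a median of 0.21. Bcl2, which guards resting T cells, had a ratio of 0.576, while its activation-induced relative Bcl2a1d had 2.80 and the death-promoting Bcl2l11 1.92. Of 29 cell cycle genes none was higher and 1 was lower, with a median of 0.06, and Mki67, a marker of proliferation, stood at 185 CPM in the anti-PD1 and 176 CPM in the anti-IgG cells, a ratio of 1.05 (0.914 to 1.21).

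**Figure D2:**
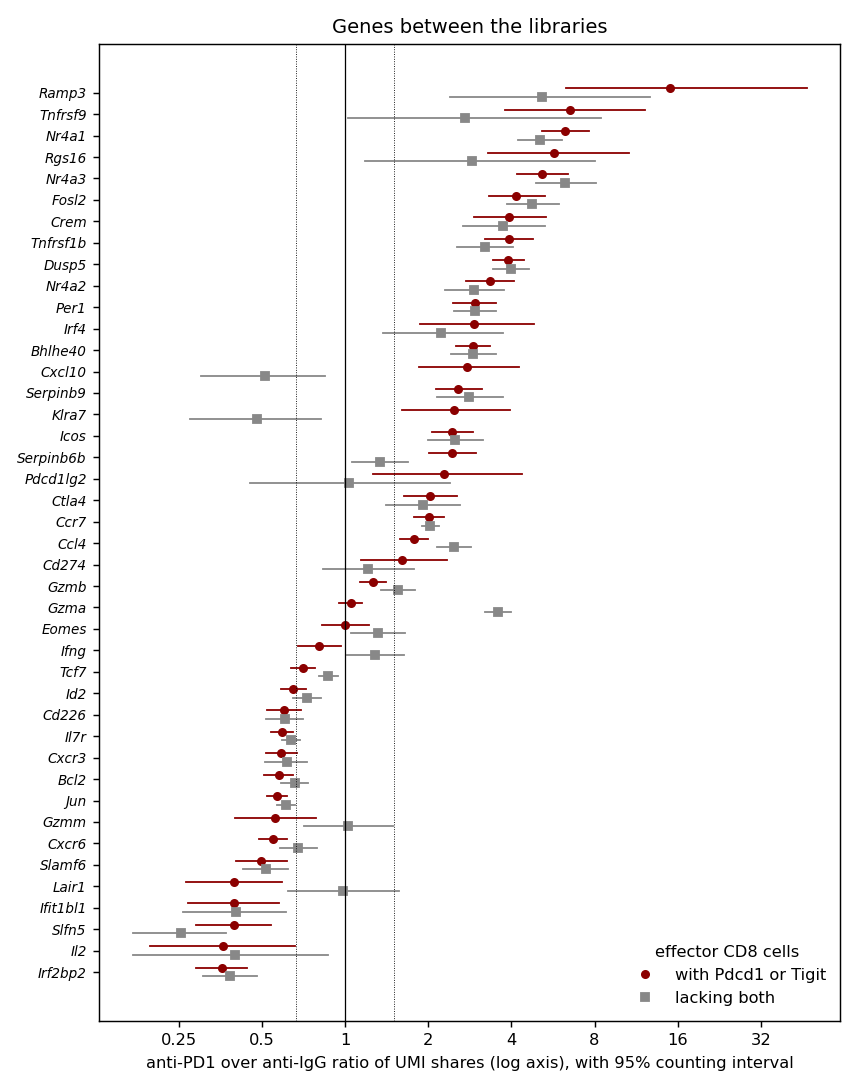
Ratio of summed UMI shares, anti-PD1 over anti-IgG, on a log axis, for named genes in cells with Pdcd1 or Tigit and in cells lacking both; lines are 95% counting intervals and dotted lines mark a ratio of 1.5 in either direction. Nr4a1 lies at 6.25 in cells with Pdcd1 or Tigit and 5.07 in cells lacking both, and Slfn5 at 0.395 and 0.255.

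Type I interferon response genes were lower as a group. Of 42 measured, none was higher and 19 were lower in the anti-PD1 library, 40 lay below 0 on the log2 scale, and the median log2 ratio was −0.52. Cells lacking both had 17 of 42 lower, with a median of −0.46. Slfn5, a schlafen family member, stood at 21.2 CPM in the anti-PD1 and 53.8 CPM in the anti-IgG cells, a ratio of 0.395 (0.288 to 0.541). Ifit1bl1, an IFIT family gene, had 15 against 37.8 CPM, a ratio of 0.396 (0.271 to 0.577). Cmpk2, a mitochondrial nucleotide kinase, had 0.482 (0.311 to 0.751), and Dhx58, the RNA sensor LGP2, 0.493 (0.339 to 0.718). Among the most used markers of this response, Isg15, a ubiquitin-like modifier, had 0.837 (0.724 to 0.969) and Ifit1, an RNA-binding antiviral protein, 0.869 (0.644 to 1.18), both within the threshold. The interferon gamma list, which overlaps in function, had 2 higher and 3 lower of 28, with a median of −0.20. Irf2bp2, a corepressor outside these lists, was also among the 12 lowest genes at 43.6 against 122 CPM, a ratio of 0.358 (0.289 to 0.442), and 0.384 in cells lacking both.

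The core of the interferon-stimulated response element, GAAA followed after any 2 bases by another GAAA, was searched on both strands in the same 250 bases, with overlapping matches merged. It lay in 18 of the 36 type I interferon genes with a searched entry, against 936 of all 27025 genes with a searched entry (3.46%). The windows show it in capitals for the lowest genes named and for Isg15, whose copies overlap. Slfn5 is shown at chr11:82951922-82951981 on the plus strand, Ifit1bl1 at chr19:34602038-34602097 on the minus strand and Isg15 at chr4:156200862-156200921 on the minus strand, all from RefSeq for GRCm38.p6.
Slfn5: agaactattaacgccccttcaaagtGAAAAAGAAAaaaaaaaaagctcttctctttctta
Ifit1bl1: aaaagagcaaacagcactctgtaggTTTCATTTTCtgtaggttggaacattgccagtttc
Isg15: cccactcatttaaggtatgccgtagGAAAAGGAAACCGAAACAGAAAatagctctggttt

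The other genes with the 12 lowest ratios were of several kinds. Pf4, Mpeg1 and Cd300c2 are myeloid genes, with ratios of 0.170, 0.358 and 0.362, and 139 of the 165 Pf4 UMIs in the anti-IgG cells lay in 1 cell. The histone genes H3c1, H2bc3 and H3c3 had 0.293, 0.333 and 0.375. AI467606 (25.1 against 72.7 CPM), Zfp329, Sass6, a centriole protein, and Art2b, a T cell ADP-ribosyltransferase, had 0.345, 0.363, 0.369 and 0.375. The macrophage list had none higher and 2 lower of 12, with a median of −0.42 and sums of 1351 CPM in the anti-PD1 and 1726 CPM in the anti-IgG cells.

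**Figure D3:**
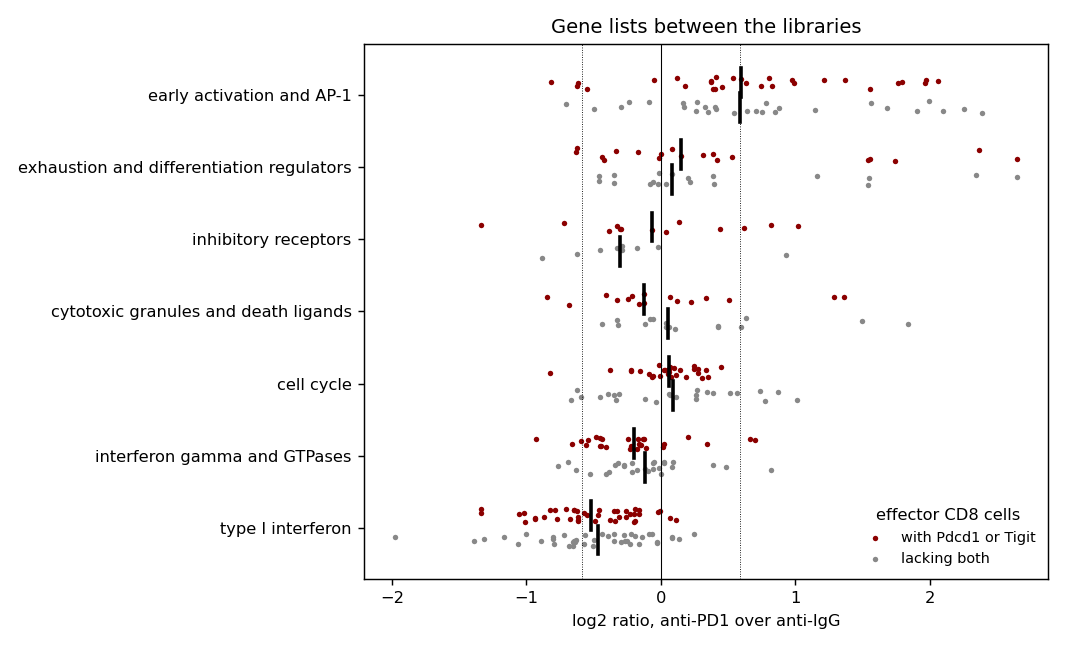
Log2 ratio of each measured gene of 7 lists, anti-PD1 over anti-IgG, in cells with Pdcd1 or Tigit and in cells lacking both; each point is a gene, black bars are list medians and dotted lines mark a ratio of 1.5 in either direction. The median of the type I interferon genes is −0.52 and that of the early activation genes 0.60 in cells with Pdcd1 or Tigit.

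The cells with Pdcd1 or Tigit were next set against effector CD8 cells lacking both, within each library, and a gene was counted where its ratio passed 1.5 the same way in both. Of 7280 genes, 267 (3.67%) were higher and 70 (0.962%) lower in both libraries, with medians of 0.10 in the anti-PD1 and 0.08 in the anti-IgG library. Several genes of tissue residence, inhibitory receptors, differentiation regulators and cell cycle genes were among the higher ones. Genes of naive and lymph node homing cells were among the lower ones. These counts depend on the effector threshold. When both groups were limited to cells with at least 10 UMIs of Ccl5, Gzmk and Nkg7, 54 genes were higher and 19 lower. This alternative was added after the data were seen, and fewer genes then held enough UMIs to be counted. The geometric mean of both libraries' ratios under that limit is given below as the stricter mean. The highest doublet scores, left out in another alternative, took 6.81% of the anti-PD1 and 4.56% of the anti-IgG cells with Pdcd1 or Tigit, against 1.93% and 2.25% of cells lacking both, and without them 253 genes were higher and 70 lower.

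Inhibitory receptors had 4 of 11 higher in both libraries and none lower, with medians of 0.47 in the anti-PD1 and 0.60 in the anti-IgG library. Ctla4 stood at 121 CPM in cells with Pdcd1 or Tigit and 51.6 CPM in cells lacking both after anti-PD1, a ratio of 2.35 (1.93 to 2.87). After anti-IgG it had 59.7 against 27.0 CPM, a ratio of 2.21 (1.61 to 3.05), and its stricter mean was 2.77. The median of the list's geometric means was 0.40 in full and 0.047 under the stricter threshold. Entpd1, the ectoenzyme CD39 of terminally exhausted cells, had 2.83 in the anti-PD1 and 1.78 in the anti-IgG library, and Cd101, another such marker, 2.42 and 1.77, with stricter means of 1.5 and 1.58. Lag3 had 4.34 (2.28 to 9.10) and 2.50 (1.48 to 4.33), and as found it was seen in 9.39% and 13.3%, against 2.13% and 3.15% of cells lacking both. At 1000 UMIs a cell the shares were 1.47% of the anti-PD1 and 2.07% of the anti-IgG cells, against 0.39% and 0.68% of cells lacking both. The intervals of these shares overlapped. In cells with B cell markers Lag3 was seen in 1.32% and 4.69%, near or above the shares of the chosen cells, but these were 2 and 3 cells. Pvrig, a receptor for the related ligand CD112, had ratios of 3.14 and 2.78.

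Of 18 differentiation regulators 8 were higher and none lower, with medians of 0.69 and 0.60. Tox had 73.3 CPM in cells with Pdcd1 or Tigit and 39.6 CPM in cells lacking both after anti-PD1, and 66.2 against 39.9 CPM after anti-IgG. The ratios were 1.85 (1.47 to 2.35) and 1.66 (1.25 to 2.19), with a stricter mean of 2.30. Ikzf2, the gene of Helios, a factor seen in regulatory and chronically stimulated T cells, had 56.4 against 19.4 and 76.2 against 26.6 CPM, ratios of 2.91 and 2.86. Maf, Gata3, a factor of type 2 cells, and Nr4a2 had ratios of 1.72, 1.84 and 2.21 in the anti-PD1 library and 2.63, 1.95 and 1.94 in the anti-IgG library.

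Among the 12 highest genes, Scart1, a scavenger receptor of gamma-delta T cells, stood apart with 10.0 and 25.9. It was seen in 6.63% of the anti-PD1 and 3.73% of the anti-IgG cells with Pdcd1 or Tigit. The gamma-delta and type 17 list summed to 363 CPM in the anti-PD1 and 242 CPM in the anti-IgG cells with Pdcd1 or Tigit, against 35.3 and 34.3 CPM in cells lacking both. Without cells with a gamma-delta receptor or Scart1 UMI, also added after the data were seen, the geometric mean of the Ctla4 ratios was 2.25, against 2.28 with them. The histone genes H2ac8, H3c3, H1f5, H2ac15 and H1f1, with Hmgb3, a chromatin protein of dividing cells, were a further 6. Smox, a polyamine oxidase, had 2.84 and 4.09, and its stricter mean was 3.26. Itgax, an integrin of activated CD8 and myeloid cells, had 2.33 and 4.39, and Napsa and Ly6d, genes of B cells among others, completed the set.

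Of 25 cell cycle genes 13 were higher and none lower, with medians of 0.87 and 0.74. Mki67 stood at 185 CPM in cells with Pdcd1 or Tigit and 98.5 CPM in cells lacking both after anti-PD1, and at 176 against 82.3 CPM after anti-IgG. The ratios of 1.87 and 2.14 had a stricter mean of 1.33. At least 2 UMIs of 5 proliferation genes were seen in 13.3% of the anti-PD1 and 14.5% of the anti-IgG cells with Pdcd1 or Tigit, against 6.38% and 5.84% of cells lacking both. At equal depth Mki67 was seen in 6.81% and 7.47%, against 2.73% and 2.51%.

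Residency genes had 6 of 12 higher and none past the threshold lower, with medians of 0.72 in both libraries, but 2 lay below 0 in both. At 1000 UMIs a cell, Itgae was seen in 4.24% of the anti-PD1 and 3.73% of the anti-IgG cells, against 6.43% and 5.71% of cells lacking both. Cd69 was seen in 26.3% and 34.4%, against 32.4% and 37.9%. The intervals of these shares overlapped, and as found Cd69 was seen more often in the cells with Pdcd1 or Tigit. Itgb1, a chain of collagen and laminin receptors, and Rgs1, which blunts egress signals, had ratios of 2.08 and 1.81 after anti-PD1 and 1.94 and 2.14 after anti-IgG, with stricter means of 1.25 and 1.28. The receptors Ccr2, Cxcr3 and Cxcr6 had 2.05, 1.81 and 1.64 after anti-PD1 and 2.57, 1.90 and 2.03 after anti-IgG. Their stricter means were 1.47, 1.16 and 1.17. Xcl1, the chemokine that draws cross-presenting dendritic cells, stood at 200 CPM in cells with Pdcd1 or Tigit and 67.1 CPM in cells lacking both after anti-PD1, and at 142 against 49.2 CPM after anti-IgG, with a stricter mean of 1.90. When cells were thinned to 1000 UMIs before they were chosen, the mean ratio of Xcl1 was 0.99.

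Cytotoxic and NK-type receptor genes came closer to 1 under the stricter effector threshold. Of 16 cytotoxic genes 3 were higher, and Gzmb had ratios of 1.61 and 1.98 but a stricter mean of 1.02. Of 8 NK-type receptors 5 were higher, yet Klrc1, Klre1 and Klrk1, with ratios of 1.68, 1.91 and 1.70 after anti-PD1 and 1.69, 1.80 and 1.57 after anti-IgG, had stricter means of 0.97, 1.04 and 0.93. Serpinb9 and Icos kept stricter means of 1.58 and 1.80.

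Genes of naive and memory cells were lower. Of 16 stem-like genes 7 were lower in both libraries and 1, Bcl6, higher, with medians of −0.58 and −0.68. Igfbp4, a binding protein found in naive T cells, stood at 103 CPM in cells with Pdcd1 or Tigit and 583 CPM in cells lacking both after anti-PD1, and at 101 against 323 CPM after anti-IgG. Dapl1, also of naive CD8 cells, had 44.4 against 159 and 66.8 against 192 CPM. Ccr7 had ratios of 0.415 and 0.421, and Lef1, a partner of TCF1, 0.445 and 0.411. Their stricter means were 0.42 for Igfbp4, 0.65 for Dapl1, 0.75 for Ccr7 and 0.65 for Lef1. Tcf7 had 266 against 466 CPM after anti-PD1 and 377 against 535 CPM after anti-IgG, ratios of 0.570 and 0.704. At equal depth Tcf7 was still seen in 20.4% of the anti-PD1 and 32.0% of the anti-IgG cells with Pdcd1 or Tigit, against 36.3% and 39.7% of cells lacking both.

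**Figure D4:**
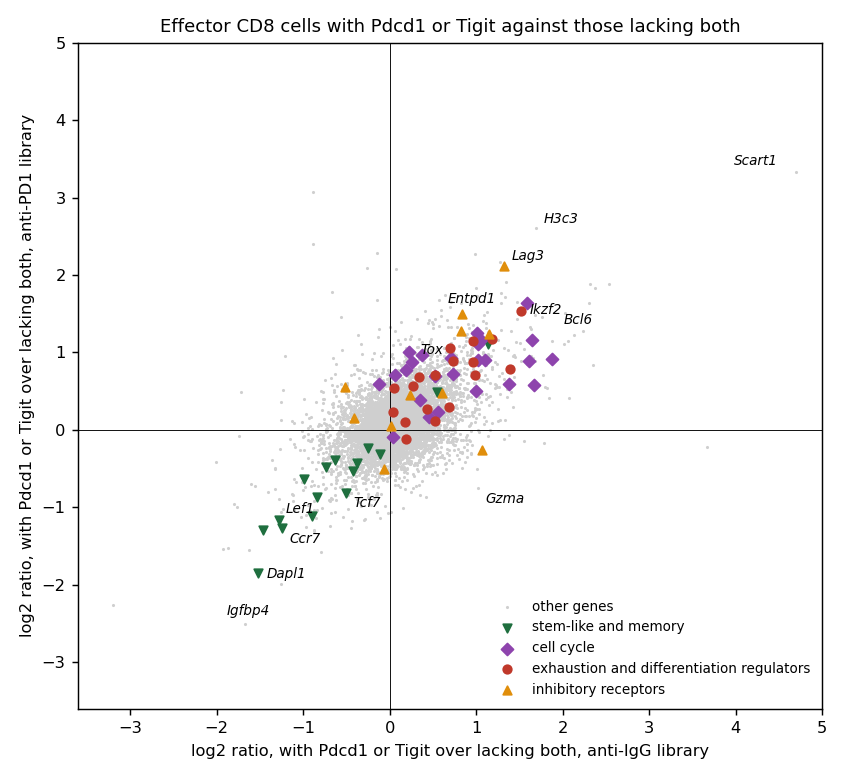
Log2 ratio of summed UMI shares, cells with Pdcd1 or Tigit over cells lacking both, in the anti-PD1 library (vertical axis) and the anti-IgG library (horizontal axis); each point is a gene, coloured by list. Scart1 lies at 3.33 in the anti-PD1 and 4.69 in the anti-IgG library, and Ccr7 at −1.27 and −1.25.

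The chosen cells were not uniform, and the 210 anti-PD1 and 110 anti-IgG cells with a Pdcd1 UMI were set against the 333 and 131 cells with Tigit alone. Their medians were 6081 and 5507.5 UMIs a cell with Pdcd1, against 5147 and 5555 with Tigit alone. Of 4687 genes, 31 (0.661%) were higher and 20 (0.427%) lower in both libraries. Of 17 differentiation regulators 2 (Tox and Maf) were higher and 1 (Eomes) lower, of 8 inhibitory receptors only Ctla4 was higher, and of 35 type I interferon genes 3 (Oas1a, Ifit2 and Ifih1) were higher. Ctla4 stood at 191.7 CPM in cells with Pdcd1 and 70.0 CPM in cells with Tigit alone after anti-PD1, a ratio of 2.74 (2.24 to 3.36), and at 84.7 against 38.9 CPM after anti-IgG, a ratio of 2.18 (1.43 to 3.37). Tox had 110 against 46.5 and 92.5 against 44.3 CPM, ratios of 2.37 and 2.09. Maf had 1.92 and 3.01, Slamf1 2.18 and 3.92, and Nrp1, a semaphorin receptor of regulatory and activated T cells, 1.94 and 2.41. Rora, Il18r1 and Ahr, of type 17 and innate-like T cells among others, had 2.09, 2.08 and 1.88 after anti-PD1 and 1.58, 1.52 and 1.78 after anti-IgG, and Scart1 had 4.98 and 2.34.

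Some genes of cytotoxic and NK-like effector cells were lower with Pdcd1, but most of their lists were not. Of 15 cytotoxic genes 2 (Gzma and Gzmm) were lower and none higher, with medians of −0.09 in the anti-PD1 and −0.02 in the anti-IgG library. Of 6 NK-type receptors 1 (Klre1) was lower, with medians of −0.34 and −0.29. The 3 measured genes of the NK cell marker list (Gzma, Klre1 and Eomes) were all lower. Gzma stood at 205 CPM in cells with Pdcd1 and 497 CPM in cells with Tigit alone after anti-PD1, and at 128 against 548 CPM after anti-IgG, ratios of 0.413 and 0.233. As found, its UMIs lay in 14.8% of anti-PD1 and 2.73% of anti-IgG cells with Pdcd1, against 21.0% and 16.8% with Tigit alone. Klre1, an NK receptor chain, had ratios of 0.342 and 0.136, and Gzmm 0.366 and 0.410. Eomes had 60.9 against 108 CPM after anti-PD1 and 56.0 against 115 CPM after anti-IgG, ratios of 0.563 and 0.489. Eomes and Tox, which are often found together in exhausted cells, thus had opposite directions in these sums. As found, Eomes was seen in 21.8% of anti-IgG cells with Pdcd1 and 29.8% of those with Tigit alone. At equal depth these shares were 10.9% (12 of 110 cells) and 5.34% (7 of 131 cells), in the other order. Their intervals overlapped (5.77 to 18.3 and 2.18 to 10.7), so these few cells do not settle a direction. Median depths in this library were already close, at 5507.5 and 5555 UMIs. In the anti-PD1 library the Eomes shares at equal depth were 3.33% and 11.4%.

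At 1000 UMIs a cell, Ctla4 was seen in 16.7% of anti-PD1 and 11.8% of anti-IgG cells with Pdcd1. The shares were 5.71% and 3.05% in cells with Tigit alone, and 3.31% and 2.74% in cells lacking both. Tox was seen in 10.0% and 9.09% of cells with Pdcd1, against 3.90% and 6.87% with Tigit alone and 4.29% and 2.97% of cells lacking both. Gzmk was seen in 22.4% and 17.3% of cells with Pdcd1, in 28.5% and 29.0% of those with Tigit alone, and in 13.3% and 10.0% of those lacking both. In the B-marker cells Tox and Gzmk were not seen and Ctla4 was seen in 1.99% of the anti-PD1 and none of the anti-IgG cells. Between cells with Pdcd1 and cells with Tigit alone, the intervals of Tox overlapped in both libraries and those of Ctla4 in the anti-IgG library. Those of Gzmk, a gene used to choose the cells, overlapped as well.

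**Figure D5:**
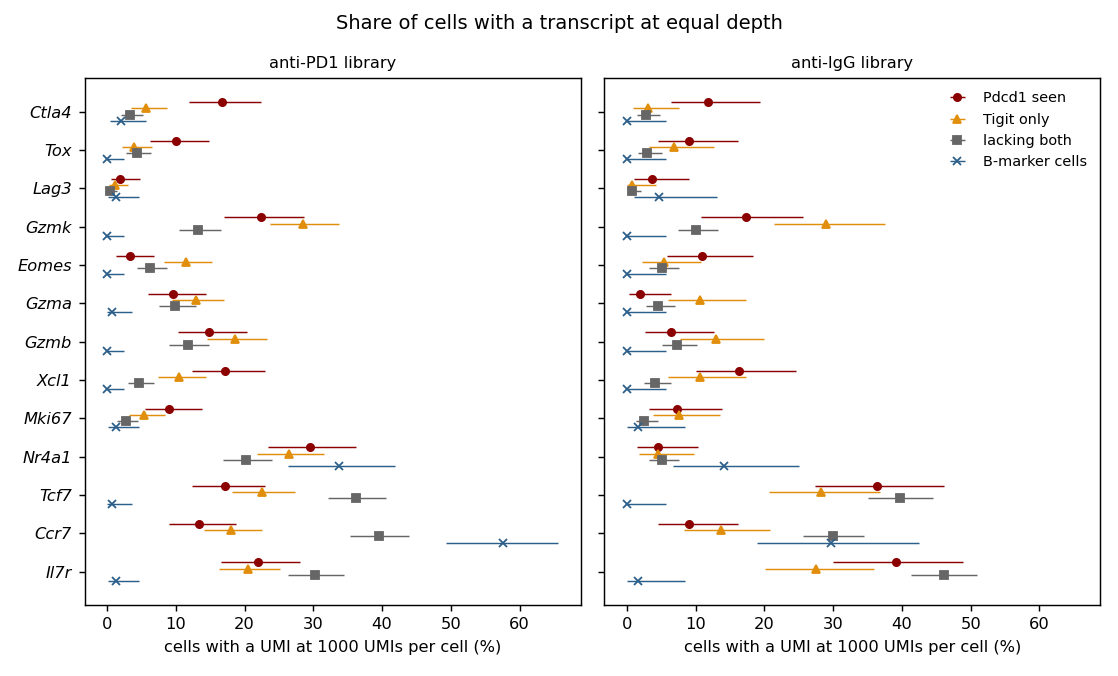
Share of cells with a UMI, in percent, after thinning each cell to 1000 UMIs, for cells with Pdcd1, cells with Tigit alone, cells lacking both and cells with B cell markers, in the anti-PD1 (left panel) and anti-IgG library, with exact 95% intervals. Ctla4 is highest in cells with Pdcd1 (16.7% and 11.8%), against 5.71% and 3.05% in cells with Tigit alone.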

How the data were processed

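The deposited files hold counts: whole UMIs for each gene and barcode, limited to called cells. They were made by the authors with Cell Ranger 7.1.0 per the file headers, whereas Cell Ranger 7.2.0, Seurat 4.4.0 and mm10 stand in the submitters' processing notes. The sources used here do not give the annotation, and the kit is given only as labelled (10x 3′ v3). The members and gene lists were chosen with earlier results of these data known. UMIs were summed over cells and scaled to 1000000 UMIs (CPM) with Python 3.11.15, scipy 1.17.1 and pandas 2.3.3. Ratios carry exact 95% intervals conditional on the summed UMIs, shares Clopper-Pearson intervals, and a count of 0 a limit of 3 counts. These cover counting error only, and with 1 library a treatment no p-value was computed. Immunoglobulin, T cell receptor segment, mitochondrial, ribosomal and sex-linked genes were left out of gene counts. Named genes were the 12 highest and 12 lowest with at least 50 summed UMIs, 20 cells and an interval that excludes 1, plus genes of the lists on receptors, regulators, cytotoxicity, cytokines and interferon and extremes of other lists. Genes of the Pdcd1 and Tigit subsets were chosen after their values were seen. Shares at equal depth came from cells thinned to 1000 UMIs, where 4 anti-PD1 and 7 anti-IgG cells lacking both were too shallow. Doublets were kept. Scrublet (scanpy 1.11.5) marked 3 and 0 cells by its own threshold and so had not worked, and an alternative removed its 272 and 149 highest scores. The code was tested on simulated data.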

Additional observations from a re-analysis of the deposited data

Results flagged for a closer look

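In 4 cases the direction was opposite between groups of cells or libraries, with each ratio past 1.5, and the difference itself was not tested. Cxcl10, an interferon-induced chemokine, had an anti-PD1 over anti-IgG ratio of 2.77 in cells with Pdcd1 or Tigit and 0.511 in cells lacking both, and single cells held up to 37 of its UMIs. Klra7, a Ly49 receptor, had 2.47 in cells with Pdcd1 or Tigit and 0.481 in cells lacking both. Gzma, a granzyme, had a ratio of cells with Pdcd1 or Tigit over cells lacking both of 0.595 in the anti-PD1 and 2.03 in the anti-IgG library. Single cells held up to 196 of its UMIs among anti-PD1 cells with Pdcd1 or Tigit and up to 235 among anti-PD1 cells lacking both. Fabp4, a fatty acid binding protein of endothelium and macrophages, had 8.39 in the anti-PD1 and 0.540 in the anti-IgG library, and 225 of its 227 UMIs in the anti-PD1 cells with Pdcd1 or Tigit lay in 1 cell.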

How the results depend on the processing

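No paired analysis was possible because each treatment had 1 library, and for the same reason no replicate could be left out. Of 274 values that summarise a comparison (shares, gene counts and list medians) over all alternatives, 243 stayed within the limits set for them. These limits were wide. With mitochondrial and ribosomal UMIs out of the total, 178 genes were higher than in cells lacking both, against 267 in full. That count lay within its limit, as did the inhibitory receptor median of 0.047 at an effector sum of 10. The 243 values therefore do not show that the results moved little. The ratio of shares was 1.72 with at least 2 UMIs of Pdcd1 and Tigit and 1.88 with cells thinned to 1000 UMIs. Between the libraries, thinning left 78 genes higher and 42 lower, and a minimum of 200 summed UMIs 206 higher and 151 lower. Removal of cells with B, macrophage, dendritic or neutrophil transcripts left 444 lower. Each of these also left fewer genes with enough UMIs, so the counts are not out of the 7948 genes compared in full. After thinning, the median over the regulators still measured was 1.5 and that over the cytotoxic genes still measured 0.21. Tox, Eomes, Maf, Irf4 and Nr4a2 no longer held enough UMIs. Nr4a1, Nr4a3 and Bhlhe40 still did, with ratios of 5.85, 8.97 and 2.82, as did Id2, with 1.08. The median of 1.5 is therefore over fewer genes than in full and does not show a shift of the whole list.

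For cells with Pdcd1 or Tigit over those lacking both, 157 genes were higher and 44 lower at an effector sum of at least 4. Without cells with transcripts of other types 172 were higher. After thinning 6 were higher and 18 lower, and at the minimum of 200 the counts were 90 and 24. With mitochondrial and ribosomal UMIs out of the total, 111 were lower. Alternatives that removed cells or UMIs or raised the minimum left fewer genes with enough UMIs. Their counts are therefore not out of the 7280 genes compared in full. List medians of the geometric means moved as well. The cell cycle median, 0.75 in full, was 0.47 without cells with other types' transcripts, 0.043 without cycling cells and 0.28 with depth weighted alike. That of NK-type receptors, 0.82 in full, was 0.51 at an effector sum of 4, and after thinning inhibitory receptors stood at 0.00090 and residency genes at 0.20. At an effector sum of 10, added after the data were seen, 54 genes were higher and 19 lower, and the medians were −0.25 for stem-like genes, 0.17 for regulators, 0.047 for inhibitory receptors (0.40 in full), 0.33 for the cell cycle, 0.22 for residency and 0.012 for NK-type receptors. Limiting the chosen cells to those with a Pdcd1 UMI, also added, gave 0.53 for NK-type receptors.

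Of 2232 values of named genes, 10 reversed. Between the libraries the reversed ones were Gzmm (1.04 with at least 2 UMIs of Pdcd1 and Tigit), Fos (1.24) and Id2 (1.08) after thinning, and Pf4 (1.36 in cells with a Tigit UMI). Over cells lacking both they were Xcl1 (0.99) and Klrk1 (0.74) after thinning, Fasl (0.99), Klrc1 (0.97) and Klrk1 (0.93) at an effector sum of 10, and Klre1 (0.60 in cells with a Pdcd1 UMI). The causes were not tested.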

Other observations

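Il17a, the type 17 cytokine, was found in few of the chosen cells. It had 176 UMIs in the anti-PD1 and 18 in the anti-IgG cells with Pdcd1 or Tigit, in 3.50% and 2.07% of them, against 1 and 2 UMIs in cells lacking both.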
